A study of Mus musculus with 172 samples.

Results

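The 32 genes described here are markers and working parts of astrocytes, read from the cortex expression tables of a mouse sleep-deprivation study. They are a list of names from general knowledge of astrocytes, chosen with earlier results of these data known. No measured value enters the rule that defines the list, and all 32 were among the 14896 genes listed in cortex. RNA was sequenced from male mice 11 to 14 weeks old that had either been kept awake by gentle handling for 6 h from light onset (SD) or been left undisturbed (Ctr), and all mice were killed at the end of those 6 h. The mice came from 33 BXD/RwwJ lines, which are inbred recombinants of C57BL/6J (B6) and DBA/2J (D2), from the parental strains and from their reciprocal F1 crosses BD and DB. As a rule, the RNA of 3 mice was combined into a pool, with fewer mice for BXD79, BXD85 and BXD101, so a pool and not a mouse was the unit of measurement. B6 (pools B61 and B62) and D2 (pools DB1 and DB2) were each sampled at the start and at the end of the study. This gave 39 Ctr and 39 SD pools, with a Ctr and an SD pool for each line or sampling. A further 4 lines of the older BXD/TyJ panel (BXD05, BXD29, BXD29t and BXD32) were kept out of the tests and are reported separately.

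Astrocytes are the glia that wrap synapses and vessels. They take up the glutamate that neurons release and turn it into glutamine, buffer potassium, move water at their endfeet around vessels, couple to each other through gap junctions, and supply lipoprotein particles. Some of the genes used to recognise them, such as Gfap and Vim, code for filaments that increase when astrocytes react to injury, while others, such as Aldh1l1 and Sox9, are expressed in most astrocytes. In bulk tissue a lower level of such a gene in fewer astrocytes cannot be told apart from less RNA per astrocyte.

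Values are log2 CPM, the log2 of reads scaled to a library total that the authors' normalization had adjusted. A difference of 1 on this scale is a doubling. Between 18995492 and 28998853 reads were assigned to genes per cortex pool. Neuronal markers summed to 10624 to 11903 CPM in the 39 Ctr pools and to 10317 to 11580 CPM in the 39 SD pools, and the immediate-early gene Arc, a check on the waking labels, was higher after SD in 39 of 39 pools (2.92 ± 0.095 log2 units, mean ± SE). 3 Ctr pools stood apart. In BXD56, Gfap and most genes of a reactive astrocyte list were above all other Ctr pools. In BXD103, Gfap and some of these genes were above every Ctr pool other than BXD56. In BXD90 the quartile of genes with the longest exonic sequence lay 0.50 log2 units below the quartile with the shortest, relative to the median pool, whereas the other 77 pools lay between -0.13 and 0.089. Several results below are given with and without these 3 lines.

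Levels of the 32 genes spanned a wide range. Per kilobase of exonic sequence, which is the scale on which genes can be compared, Sparcl1, a secreted matrix protein that promotes synapse formation, had the highest median in Ctr pools at 721 CPM per kilobase. It was followed by Cst3, a secreted protease inhibitor, at 522, by Apoe, the lipoprotein of brain lipid transport, at 464, and by Glul, the glutamine synthetase, at 388 CPM per kilobase. The lowest medians were those of the transcriptional regulator Sox9 at 7.43, of Cbs, the cystathionine beta-synthase, at 8.09, and of Id3 at 10.5 CPM per kilobase. The canonical marker Gfap ranked only 19th of the 32, at 23.3 CPM per kilobase, and Aldh1l1 27th at 15.2. No member was near the detection floor in any cortex pool, the lowest single value being 3.46 log2 CPM, of Fabp7 in an SD pool.

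After SD most astrocyte genes changed by small amounts, and those with the largest changes went in opposite directions. How many were called depended on whether the Ctr and SD pools of a line were paired. The gap-junction gene Gjb6 rose most, followed by Daam2, Glul and Cbs, while Sox9, Id3, Ppap2b and Id2 fell. With Ctr and SD pools treated as independent, 15 of the 32 passed an adjusted p of 0.05 in limma's moderated test (46.9%), against 68.4% of all 14896 genes. Of these, 10 were raised (31.2%, against 33.0% of all genes) and 5 were lowered (15.6%, against 35.4%). The median size of the change was 0.085 log2 units over the members and 0.13 over all genes, and the median signed change was 0.040 and -0.0097. With the line as a block, which compares each SD pool with the Ctr pool of the same line, 25 of the 32 passed (78.1%, against 76.3% of all genes), 17 of them raised and 8 lowered. After quantile normalization 10 were raised and 9 lowered. Centring each library on the median of the 32 members gave 4 raised and 16 lowered, but that scaling sets the balance of the members itself and moves the median of all genes to -0.10. Without BXD56, BXD90 and BXD103 the counts were 12 raised and 6 lowered, and 16 and 7 with the block. 5 members moved in the same direction in all 39 pools, namely Gjb6, Glul, Cbs, Daam2 and Id2 (15.6%, against 11.2% of all genes). The samples are pools of different mice, so the p-values cover the spread between pools.

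**Figure D1:**
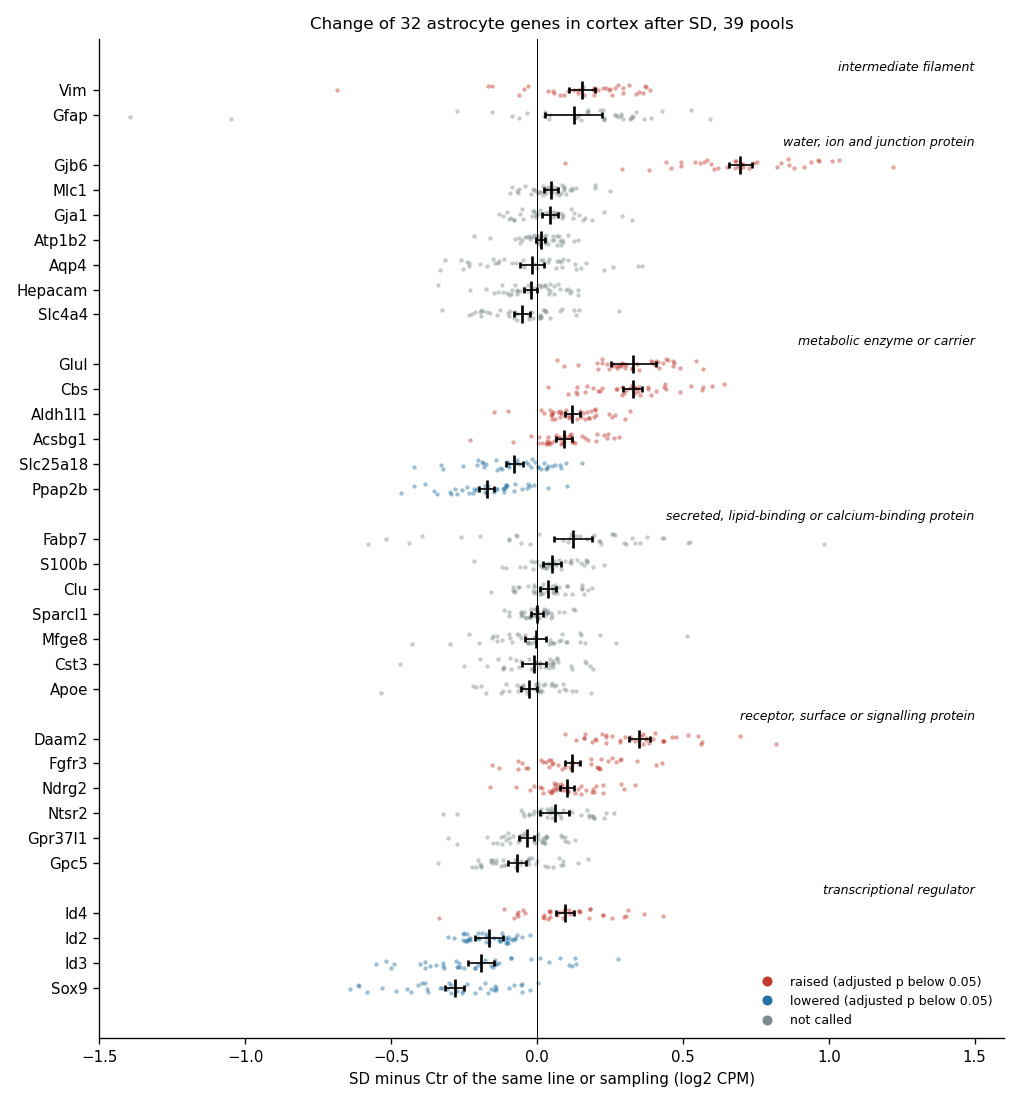
SD minus Ctr of the same line or sampling in log2 CPM (x axis) for each of the 32 astrocyte genes (rows, by role), with a point per line or sampling (39 each, red where raised, blue where lowered and grey where not called) and the mean ± SE of the limma test without block in black. The colours follow the calls without block. Gjb6 lies entirely to the right of zero and Id2 entirely to the left, and the 2 points of Gfap below -1 are BXD56 and BXD103.

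The stretch before the gene start is shown for the members that rose or fell in every pool, other than Glul, so that a reader can see what lies there. These 4 were chosen after their values were known. Each is the 250 bases before the gene's first base in RefSeq, 5′ to 3′ on the gene's strand, on GRCm38.p6, a later build than the mm9 positions given for the genes below. Capitals mark a CACGTG, the E-box bound by the core clock factors, or a TGACGTCA, the full cyclic-AMP response element. The windows are chr14:57133612-57133861 (Gjb6), chr17:31637206-31637455 (Cbs), chr17:49564338-49564587 (Daam2) and chr12:25096093-25096342 (Id2), all on the minus strand. Daam2 had 2 promoter entries and a single window is shown, and which of them is used in cortex was not tested.
Gjb6: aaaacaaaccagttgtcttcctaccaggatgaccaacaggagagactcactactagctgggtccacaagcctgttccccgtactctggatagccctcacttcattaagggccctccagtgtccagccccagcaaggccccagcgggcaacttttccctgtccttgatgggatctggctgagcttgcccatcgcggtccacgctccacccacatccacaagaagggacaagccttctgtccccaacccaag
Cbs: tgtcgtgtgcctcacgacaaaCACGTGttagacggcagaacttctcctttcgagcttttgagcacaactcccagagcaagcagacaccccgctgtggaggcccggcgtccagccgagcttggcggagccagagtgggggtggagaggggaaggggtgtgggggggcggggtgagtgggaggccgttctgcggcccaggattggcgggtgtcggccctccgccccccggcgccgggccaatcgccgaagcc
Daam2: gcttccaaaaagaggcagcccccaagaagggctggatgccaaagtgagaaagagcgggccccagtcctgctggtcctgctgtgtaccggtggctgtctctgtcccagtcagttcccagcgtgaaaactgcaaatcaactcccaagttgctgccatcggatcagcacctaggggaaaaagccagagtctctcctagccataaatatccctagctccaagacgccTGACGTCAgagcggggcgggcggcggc
Id2: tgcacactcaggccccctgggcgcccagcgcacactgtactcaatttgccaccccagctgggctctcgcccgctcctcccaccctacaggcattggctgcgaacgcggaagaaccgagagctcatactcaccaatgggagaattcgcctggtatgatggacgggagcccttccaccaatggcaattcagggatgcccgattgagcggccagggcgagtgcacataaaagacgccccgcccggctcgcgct
RefSeq windows were matched for 27 of the 32 members, the others being Aqp4, Atp1b2, Clu, Sparcl1 and Sox9. On either strand, CACGTG was found before 2 of the 27 members (Cbs and Ntsr2) and in 6.02% of all 32851 windows of the same length. TGACGTCA was found before 1 (Daam2) and in 1.55% of all windows. The heat-shock motif GAANNTTC (6.69% of all windows) and the glucocorticoid response element (0.387%, matched as its 2 half-sites) were found before none of them. A TATAAA was found before 5 (Vim, Slc25a18, Apoe, Gpc5 and Ndrg2), against 12.4% of all windows. The motifs marked do not overlap each other, and a match is a description of the letters only.

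Among the junction, water and ion proteins, only Gjb6 passed the test without block. Positions are given on mm9 from the GENCODE M1 annotation. Gjb6, whose upstream window held none of the motifs searched, codes for connexin 30, a subunit of the gap junctions that couple astrocytes, on chr14:57742140-57752448 (mm9, minus strand). It ranged from 5.20 through a median of 5.50 to 5.96 log2 CPM in Ctr pools and from 5.56 through 6.22 to 6.55 after SD. The SD pools were mostly above the Ctr pools, but the ranges overlapped, since the lowest SD pools lay within the Ctr range. Within lines Gjb6 was higher after SD in 39 of 39, by 0.70 ± 0.039 log2 units (1.62-fold, adjusted p = 9.86e-28), with the smallest rise in BXD89 (0.10) and the largest in BXD79 (1.22). Gja1, which codes for connexin 43, the other main astrocyte connexin, changed by 0.043 ± 0.027 (adjusted p = 0.158, and 0.0197 with the block). The connexin pair thus sat far apart on the same scale, with Gja1 higher after SD in 23 of 39 pools. Aqp4, the water channel of the endfeet, changed by -0.018 ± 0.041 (adjusted p = 0.705) and was higher in 19 of 39 pools. Mlc1 and Hepacam, whose products form a membrane complex at the endfeet, changed by 0.047 ± 0.024 and -0.022 ± 0.023, and only Mlc1 passed with the block (adjusted p = 7.96e-04). Without BXD85 Mlc1 also passed unblocked (0.051, adjusted p = 0.0277). The sodium bicarbonate cotransporter Slc4a4 changed by -0.050 ± 0.027 (adjusted p = 0.0915, 0.0157 with the block, and 0.0221 unblocked without BXD90). Atp1b2, a beta subunit of the sodium pump, changed by 0.012 ± 0.016 and passed neither test.

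All 6 enzymes and carriers passed, 4 raised and 2 lowered. Glul converts glutamate and ammonia to glutamine and lies on chr1:155747074-155756853 (mm9, plus strand). It ranged from 9.45 through 10.33 to 10.60 in Ctr pools and from 9.88 through 10.62 to 10.88 after SD. Glul differed widely between lines and the groups overlapped, yet every one of the 39 lines or samplings was higher after SD. The mean rise was 0.33 ± 0.077 log2 units (1.26-fold, adjusted p = 1.14e-04, and 1.83e-21 with the block). Cbs, with the CACGTG 229 bases before its start, makes cystathionine from homocysteine and serine, and lies on chr17:31749568-31774144 (mm9, minus strand). It went from a median of 4.76 (4.49 to 5.31) to 5.07 (4.71 to 5.48) log2 CPM. It was higher after SD in 39 of 39 pools, by 0.33 ± 0.034 (adjusted p = 3.59e-14). Aldh1l1, the folate enzyme used as a general astrocyte marker, rose by 0.12 ± 0.026 in 37 of 39 pools (adjusted p = 2.19e-05). Acsbg1, an acyl-CoA synthetase, rose by 0.093 ± 0.028 (adjusted p = 0.00263), but was not called after quantile normalization (0.052, adjusted p = 0.106) or with libraries centred on the members (-0.00059). Ppap2b, a lipid phosphatase also known as Plpp3, on chr4:104829952-104905369 (mm9, plus strand), ranged from 7.91 through 8.12 to 8.25 in Ctr pools and from 7.53 through 7.95 to 8.19 after SD. It fell in 37 of 39 pools, with a mean change of -0.17 ± 0.025 (adjusted p = 2.93e-09). Slc25a18, a mitochondrial glutamate carrier, changed by -0.078 ± 0.030 (adjusted p = 0.0176) and was lower in 26 of 39 pools. The RNA of Glul thus rose while that of Slc25a18 fell slightly, and the handling of glutamate was not tested.

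None of the 7 secreted, lipid-binding or calcium-binding proteins passed without the block (with it Clu, S100b and Fabp7 did, all higher). Sparcl1 had the smallest spread of the within-line change of any member (SD 0.054 over 39 pools) and a mean change of 0.00042 ± 0.020, with 18 pools higher and 21 lower. Apoe changed by -0.028 ± 0.026 (adjusted p = 0.351, and 0.182 with the block). Its Ctr pools ran from 9.64 to 10.29 and its SD pools from 9.64 to 10.15, and the highest Ctr pool was BXD90. Clu, the other main astrocyte apolipoprotein, changed by 0.038 ± 0.026 (adjusted p = 0.192, and 0.00957 with the block). Cst3 changed by -0.011 ± 0.041 and Mfge8, a bridging protein for the uptake of apoptotic cells, by -0.0051 ± 0.035, and neither passed with or without the block. S100b, a calcium-binding protein, changed by 0.052 ± 0.031, and passed only with the block (adjusted p = 0.00123). Fabp7, the brain fatty-acid binding protein, was the least expressed of these on the CPM scale and had a wide within-line spread (SD 0.31). Its mean change was 0.12 ± 0.065 (adjusted p = 0.0886, 0.0145 with the block, and 0.0319 without the block and the 3 lines).

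Among the 6 receptors, surface and signalling proteins, Daam2, Fgfr3 and Ndrg2 were raised. Daam2, a formin of the Wnt pathway with the TGACGTCA 27 bases before the start shown, lies on chr17:49595347-49703662 (mm9, minus strand). It ranged from 6.36 through 6.85 to 7.21 in Ctr pools and from 6.97 through 7.19 to 7.45 after SD. It was higher in 39 of 39 pools, by 0.35 ± 0.035 log2 units (1.27-fold, adjusted p = 1.22e-14). The largest rise was in BXD90 (0.82), whose Ctr pool stood apart on long transcripts, and without the 3 lines the mean was 0.32. Fgfr3, a fibroblast growth factor receptor, rose by 0.12 ± 0.026 in 32 of 39 pools (adjusted p = 3.55e-05). Ndrg2, a cytoplasmic protein enriched in astrocytes, rose by 0.10 ± 0.023 in 35 of 39 pools (adjusted p = 6.63e-05). The neurotensin receptor Ntsr2 changed by 0.060 ± 0.050, the orphan receptor Gpr37l1 by -0.035 ± 0.026 and the glypican Gpc5 by -0.068 ± 0.032. These 3 passed only with the block (adjusted p = 0.00376, 0.0344 and 7.16e-04), Ntsr2 as higher and the other two as lower. Gpc5 lay at the threshold (adjusted p = 0.0504), and leaving out any 1 of 14 lines or samplings brought it below.

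The transcriptional regulators were the role in which most members fell. Sox9, the factor that specifies and marks astrocytes, on chr11:112643538-112649074 (mm9, plus strand), ranged from 4.76 through 4.94 to 5.33 in Ctr pools and from 4.32 through 4.65 to 5.03 after SD. It was lower in 38 of 39 pools, with a mean change of -0.28 ± 0.032 (0.822-fold, adjusted p = 1.47e-12). The Id genes code for proteins that bind basic helix-loop-helix factors and keep them off DNA, and they are typical targets of BMP signalling. Id2, on chr12:25778666-25780957 (mm9, minus strand), ranged from 6.51 through 7.09 to 7.43 in Ctr pools and from 6.43 through 6.90 to 7.14 after SD. The groups overlapped, but Id2 was lower after SD in each of the 39 comparisons within a line, by between 0.022 and 0.31 log2 units, with a mean change of -0.16 ± 0.048 (adjusted p = 0.00172, and 9.23e-17 with the block). Id3, on chr4:135699412-135701670 (mm9, plus strand), went from a median of 4.23 (4.00 to 4.70) to 4.05 (3.59 to 4.53) and was lower in 31 of 39 pools, with a mean change of -0.19 ± 0.045 (adjusted p = 1.33e-04). Id4 went the other way, higher in 31 of 39 pools, by 0.10 ± 0.030 (adjusted p = 0.00346).

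The intermediate filaments were the members most touched by the pools that stood apart. Gfap, on chr11:102748650-102762226 (mm9, minus strand), had a median of 6.62 log2 CPM in Ctr pools and 6.89 after SD. Its Ctr level was 9.29 in BXD56 and 8.06 in BXD103, while the other 37 Ctr pools lay between 6.13 and 7.26. BXD56 was also the highest SD pool (7.89), and BXD103 had 7.01 after SD, within the range of the other pools. BXD73, a line closely related to BXD103, had 6.65 in its Ctr pool and 6.97 in its SD pool. Gfap was thus higher after SD in 32 of 39 pools and lower by 1.40 and 1.05 log2 units in these 2 lines. Over all 39 pools the change was 0.13 ± 0.10 (adjusted p = 0.254, and 0.0314 with the block), and without BXD56 and BXD103 it was 0.20 (adjusted p = 0.00368). Leaving out BXD56 alone already made it pass (0.17, adjusted p = 0.0326). Vim, the other filament, had 6.32 in the Ctr pool of BXD56 against 4.80 to 5.35 in the 37 Ctr pools other than BXD56 and BXD103. It rose by 0.15 ± 0.046 (adjusted p = 0.00222) over all pools and by 0.19 without the 2 lines.

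A list of 20 genes of reactive astrocytes was high in the Ctr pool of BXD56 and in part in that of BXD103. Summed over the list, the Ctr pools reached 459 CPM in BXD56 and 328 in BXD103 against a median of 237, and the SD pools ran from 222 to 297 CPM. BXD56 was the highest Ctr pool for 17 of the 20 genes and above the median for 19, while BXD103 was above the median for 17 but first or second for only 8. In BXD56, Cd44, a hyaluronan receptor, was at 5.02 against a Ctr median of 1.65, and Timp1, an inhibitor of metalloproteinases, was at 2.19 against -1.78. Other genes of the list, picked after their values were seen, were high as well. Socs3, a feedback inhibitor of cytokine signalling, was at 3.93 against 1.83, and the serpin Serpina3n was at 5.62 against 3.89. In BXD103, Cd44 (3.41) and Timp1 (1.52) lay above the other 37 Ctr pools, whereas Socs3 (2.15) and Serpina3n (4.40) lay within their span, which reached 2.17 and 5.12. The meningeal fibroblast list was also highest in BXD56, at 276 CPM against a median of 204 in Ctr pools, and its part in these values was not tested. These are values of single pools and have no replicate within the line.

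**Figure D2:**
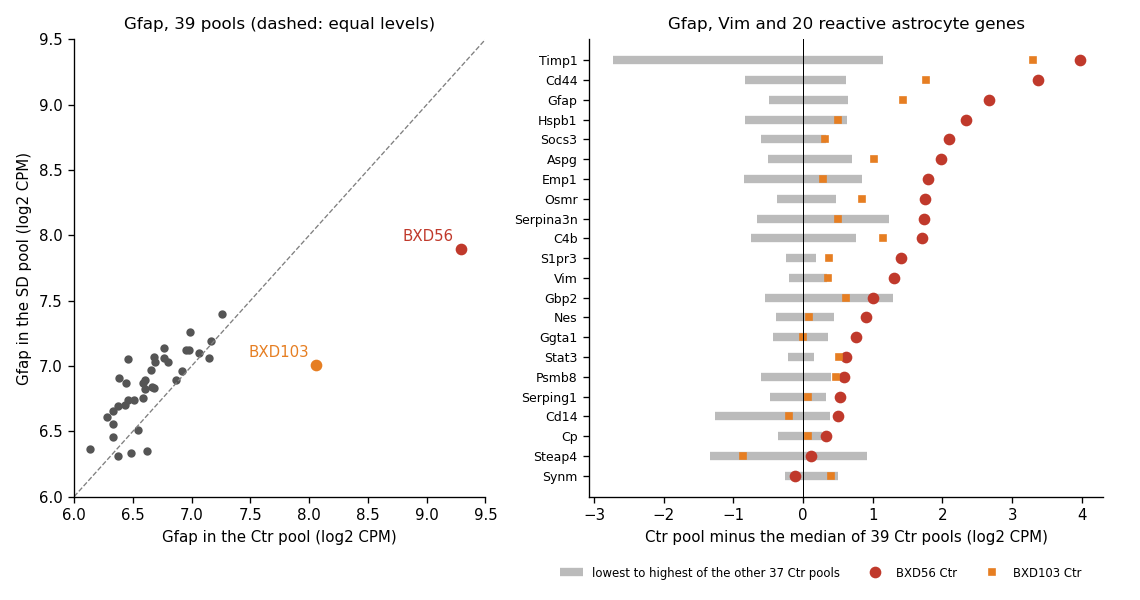
Left, Gfap in the Ctr pool (x axis) against the SD pool (y axis) of each of the 39 lines or samplings, in log2 CPM, with the line of equal levels dashed. Right, the Ctr pools of BXD56 (circles) and BXD103 (squares) minus the median of 39 Ctr pools for Gfap, Vim and 20 reactive astrocyte genes, with the span of the other 37 Ctr pools in grey. BXD56 lies outside the grey span for most genes, and BXD103 for fewer.

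In the 4 BXD/TyJ lines, which entered no test above, 12 of the 15 called members (80.0%) changed in the called direction in all 4 lines, against 64.0% of all 10191 called genes. Gjb6 changed by 0.81 in BXD05, 0.69 in BXD29, 0.53 in BXD29t and 1.07 in BXD32, inside the span of the other 39. Glul rose by 0.48, 0.40, 0.29 and 0.44 in the same order. Id2 changed by -0.28, -0.20, -0.24 and -0.16. The 3 exceptions were Aldh1l1, Acsbg1 and Ndrg2, which were lower after SD in 1 or 2 of the 4 lines.

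Further astrocyte genes and the pathways around the members also changed in both directions. Of 52 other astrocyte genes, all listed, 23 were raised and 15 lowered, with a median change of 0.039. The share called was 73.1%, against 68.4% of all genes and 46.9% of the 32 members. Of all genes 33.0% were raised and 35.4% lowered. The largest rises were those of Dio2, the deiodinase that activates thyroid hormone (1.38 ± 0.055), Ezr, the ezrin of fine astrocyte processes (0.62 ± 0.038), and Htra1, a secreted serine protease (0.57 ± 0.036). The largest falls, all called, were those of Gpc4, a glypican (-0.28 ± 0.041), Slc7a11, the cystine-glutamate exchanger (-0.28 ± 0.10), and Entpd2, an ecto-nucleotidase (-0.25 ± 0.11). Of 8 genes of the endfoot and its dystrophin complex, 3 were raised and 4 lowered (87.5%), with Dtna at 0.17 and Sntb1 at -0.32. Of 22 BMP and Notch genes, 8 were raised and 4 lowered (54.5%). They included Id1 (0.37 ± 0.050) and the BMP antagonist Smad7 (0.43 ± 0.028), both raised, and the Notch target Hes5 (-0.73 ± 0.060), which fell. Id1 and Id4 thus rose while Id2 and Id3 fell. Of 10 lipoprotein partners of Apoe and Clu, 6 were raised and 4 lowered (100%), with the liver X receptor Nr1h3 at 0.43 ± 0.061. Of the 20 reactive genes 6 were raised and 6 lowered (60%). Timp1 (1.77 ± 0.20), the small heat-shock protein Hspb1 (1.49 ± 0.091) and Emp1 (0.96 ± 0.10) rose most, and Cd44 (-0.37 ± 0.13, adjusted p = 0.00695) fell most. Without BXD56 and BXD103 the fall of Cd44 was smaller, with a change of -0.24 (adjusted p = 0.00902), and 7 of the 20 were raised and 5 lowered. Timp1 was near the detection floor, with a Ctr median of -1.78 log2 CPM.

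Markers of other cells moved too. All 4 neuronal, oligodendrocyte, microglial and endothelial lists held genes that rose and genes that fell, with medians from -0.052 to -0.025. In this order 66.7%, 66.7%, 75.0% and 83.3% of their genes were called, against 68.4% of all genes. Of 12 meningeal fibroblast genes 11 were lowered (91.7%, against 35.4% of all genes) and none raised, with a median of -0.26. The summed list ran from 154 to 276 CPM in Ctr pools and from 131 to 234 after SD. Its part in the changes of the members was not tested. Of 5 listed choroid plexus genes 1 was lowered (20%), and their sum ran from 231 to 621 CPM in Ctr pools and from 225 to 841 after SD. Of 4 listed ependymal genes 1 was raised and 1 lowered (50%), and of 2 listed pituitary genes none was called. Their sums reached 9.75 and 59.8 CPM in Ctr pools. The ependymal gene Ccdc153 and the pituitary hormone gene Gh had no reads in at least 1 Ctr pool. Among 9 mural cell genes 1 was raised and 4 lowered (55.6%), and among 6 of oligodendrocyte precursors 2 and 2 (66.7%).

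The levels of the astrocyte genes differed between strains. In a test over 37 strains and 78 libraries, with the condition as a term, all 32 passed an adjusted p of 0.05, against 55.5% of all genes. With no mean-variance trend in limma 30 passed, without Gjb6 (adjusted p = 0.0505) and Sox9 (0.0573). Sox9 also did not pass without BXD79, BXD85 and BXD101 (adjusted p = 0.116), nor Hepacam with libraries centred on the members' median (0.0564). Without BXD56, BXD90 and BXD103 all 32 passed. Strain means differed from the lowest to the highest strain by a median of 0.55 log2 units over the members and 0.47 over all genes. The smallest range was that of Atp1b2 (0.24) and the largest that of Gfap (2.34), which BXD56 set. Next were Fabp7 (1.14), Vim (1.11, again set by BXD56), Glul (1.02), Ntsr2 (0.90), Cst3 (0.85) and Id2 (0.80). The highest strain was BXD90 for Cst3 and Id2, and the lowest was BXD85, with fewer mice per pool, for Ntsr2 and Id2. These ranges are given over all 37 strains only. The test statistic was largest for Glul (F = 38.6, adjusted p = 2.86e-23) and Id2 (F = 31.5, adjusted p = 2.06e-21), followed by Ntsr2 (F = 11.8). It was smallest for Sox9 (F = 1.94, adjusted p = 0.0315) and Gjb6 (F = 2.07, adjusted p = 0.0202), which were the members that fell and rose most after SD. The Ctr and SD pools of a strain served as its replicates, so a change after SD that differed between lines entered the error of this test. The strain range was 0.71 for Gjb6 and 0.46 for Sox9, against the median of 0.55.

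Glul fell into 3 levels across the panel. In Ctr pools, both D2 pools and 9 BXD lines (BXD44, BXD50, BXD64, BXD66, BXD67, BXD70, BXD81, BXD87 and BXD98) lay between 9.45 and 9.64 log2 CPM. Both F1 pools lay at 9.99 and 10.03, and the remaining 26, with both B6 pools, lay between 10.19 and 10.60. After SD the same 11 pools were again the lowest, at 9.88 to 10.20 log2 CPM, with the F1 pools at 10.32 and 10.44 and the remaining 26 at 10.47 to 10.88. The levels did not overlap in either condition. The 4 BXD/TyJ lines had Ctr values of 9.65, 9.40, 9.59 and 9.64, all close to the low level. Genes next to Glul on chromosome 1 split the same pools, and 2 of them, chosen after their values were seen, are given here. Rgsl1, whose start lies 121 kilobases away, ran from -0.34 to 0.99 log2 CPM in the 11 Ctr pools and from 2.14 to 3.16 in the 26. The uncharacterised gene 5830403L16Rik, which overlaps the start of Glul by 265 bases on the opposite strand, ran from -3.47 to -2.40 and from 0.17 to 1.35. Reads were counted by strand, and all lines were aligned to a B6-based genome, the part of which in these levels was not tested.

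Id2 and Ntsr2, both on chromosome 12 and 9118390 bases apart, also kept their order across conditions. Over the 39 lines or samplings the Ctr and SD levels of Id2 had r = 0.944 (Spearman's rho = 0.930, and r = 0.935 without the 2 pools farthest from the median). For Ntsr2 the values were r = 0.871, rho = 0.876 and r = 0.830. The pairs share a line but no library, and the 2 samplings of each parent and the related lines are not independent points. Over all members the median of this r was 0.56, from 0.27 for Gjb6 upward, and over all genes it was 0.33. Id2 and Ntsr2 were alike in level in Ctr pools (r = 0.727, rho = 0.704, and 0.683 without 2 pools) and in SD pools (0.751, 0.703 and 0.738), whereas their changes had r = 0.119.

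**Figure D3:**
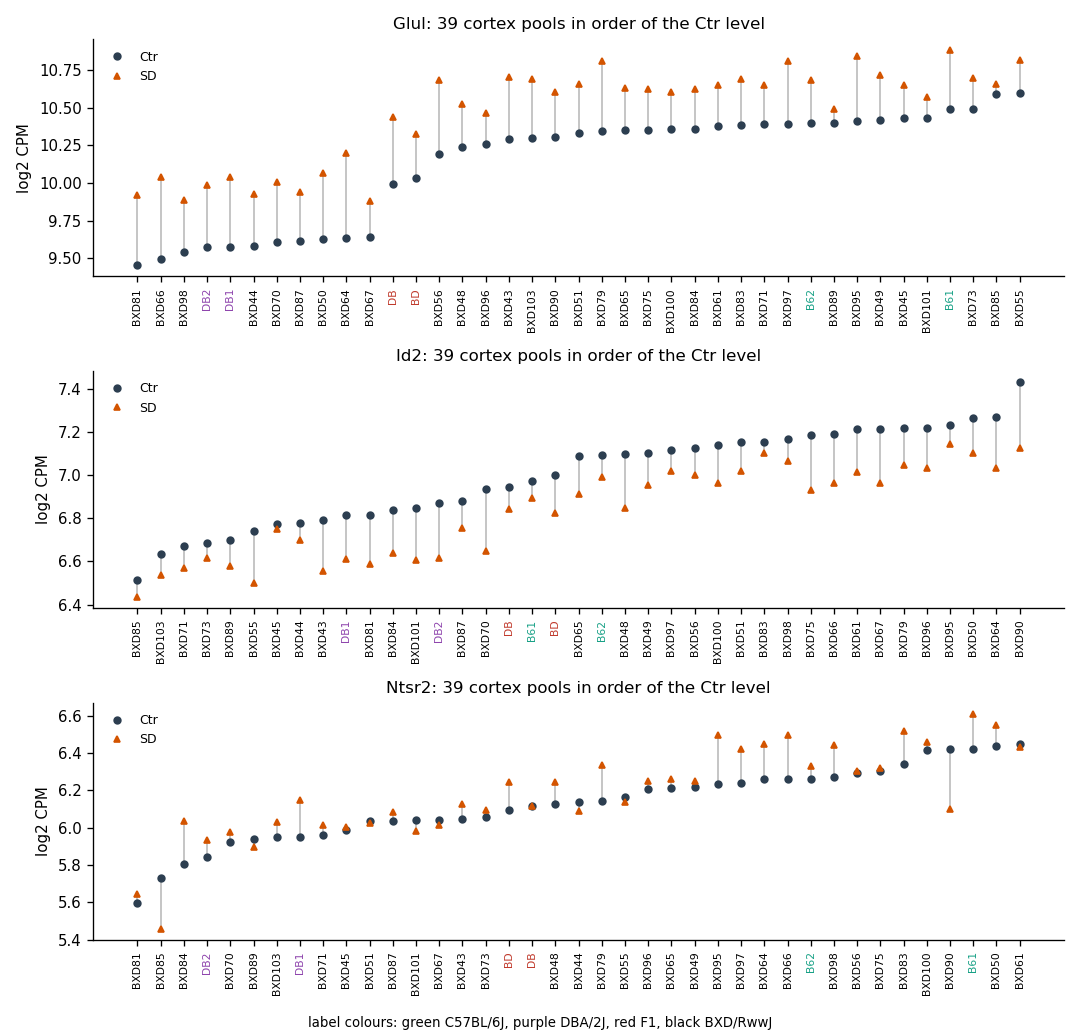
Glul (top), Id2 (middle) and Ntsr2 (bottom) in each of the 39 Ctr pools (circles) and the SD pools of the same line (triangles), in log2 CPM, with pools in order of the Ctr level. Glul shows 3 levels with the F1 pools between the D2 and the B6 pools, every Glul triangle lies above its circle, and every Id2 triangle lies below.

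Between the parents, 12 of the 32 members differed (37.5%), against 25.5% of all genes, in 8 libraries with the condition as a term. 9 were lower and 3 higher in D2. Glul was lower in D2 (D2 minus B6 = -0.82 ± 0.048 log2 units, adjusted p = 8.35e-09), with Ctr values of 10.49 and 10.40 in B6 and 9.58 and 9.57 in D2. Its SD values were 10.88 and 10.69 in B6 and 10.04 and 9.99 in D2, so that the strains did not overlap even across conditions. Fabp7 was higher in D2 by 0.54 ± 0.083 (adjusted p = 1.80e-04), with 3.60 and 3.49 in B6 and 3.90 and 4.26 in D2 in Ctr pools. Ntsr2 (-0.44 ± 0.065, adjusted p = 1.25e-04), Id2 (-0.26 ± 0.045, adjusted p = 5.19e-04) and Aqp4 (-0.22 ± 0.050, adjusted p = 0.00395) were lower in D2. Gja1 was higher in D2 (0.24 ± 0.049, adjusted p = 0.00214) and Gjb6 lower (-0.16 ± 0.055, adjusted p = 0.0471). Gjb6 did not separate the parents in Ctr pools, where DB1 lay above both B6 pools. Only after SD were both D2 pools below both B6 pools for Gjb6. The call of Gjb6 was also lost without a mean-variance trend and with libraries centred on their own medians. The remaining 5 were Id3, Aldh1l1, Gpc5 and Id4, lower in D2 by 0.15 to 0.29, and Atp1b2, higher by 0.17. The mean of the F1 pools lay between the parents for all 12. Only Glul, Fabp7, Ntsr2, Id2, Aqp4 and Gja1 passed whichever of the 4 parental samplings was left out, and the count ran from 7 without DB1 to 15 without B61. Without B61, 10 members were higher and 5 lower in D2. With libraries centred on their own medians 6 were higher and 7 lower, and centred on the members' median, which sets the balance of the members itself, 7 were higher and 4 lower.

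Over pools the members varied together only in part. Among the 496 pairs of members the median r over 39 pools was 0.14 in Ctr levels, 0.18 in SD levels and 0.19 in the within-line changes, with 11.3%, 7.46% and 17.1% of pairs above 0.5. Without BXD56, BXD90 and BXD103 the medians were 0.19, 0.18 and 0.24. With the mean of the other 31, single members had a median r of 0.34, 0.39 and 0.49, and 37.5%, 40.6% and 50.0% of them were above 0.5. The 14864 genes outside the list had a median r between -0.00060 and 0.013 with the mean of the 32, and 0.77%, 0.73% and 1.51% of them were above 0.5. All these points share the library, its depth and its dissection, and the correlations are given as descriptions. In Ctr levels Gpr37l1 (r = 0.86), Ndrg2 (0.80) and Mlc1 (0.69) followed the mean of the other 31 members most closely, and Id2 (-0.17), Id4 (-0.038) and Cst3 (0.072) least. In the change after SD it was Ndrg2 (0.84), Acsbg1 (0.81) and Gpr37l1 (0.75) most, and Gfap (-0.17), Vim (-0.13) and Id2 (-0.12) least. Of the members with the largest mean changes, Glul (0.59) and Cbs (0.47) stood higher in this order than Gjb6 (0.27), Daam2 (0.16) and Sox9 (0.14). Without BXD56, BXD90 and BXD103 Daam2 had 0.46, and without BXD56 and BXD103 alone 0.16, so that BXD90 set its low value. The other 4 were at 0.60, 0.51, 0.32 and 0.23 without the 3 lines. The closest pairs in the change were Apoe with Cst3 (r = 0.825, rho = 0.746), Gfap with Vim (0.816 and 0.564) and Cbs with Fgfr3 (0.786 and 0.800). In BXD56 both filaments fell, Gfap by 1.40 and Vim by 0.68 log2 units, the lowest change of the 39 for each.

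The mean of the members moved with that of other astrocyte genes, and in the changes also with the endothelial, mural and microglial lists. The 52 other astrocyte genes had r = 0.737 with it in Ctr levels, 0.88 in SD levels and 0.833 in the changes (rho = 0.684, 0.829 and 0.72). In the changes the endothelial list had r = 0.768 (rho = 0.651, and r = 0.621 without the 2 pools farthest from the median). The mural list had 0.716 (0.568 and 0.545) and the microglial list 0.692 (0.702 and 0.679). The neuronal list had r = -0.478 (rho = -0.448) and the oligodendrocyte list -0.414 (-0.353). In lines where the astrocyte genes changed upward the most, endothelial, mural and microglial genes tended to as well, and neuronal and oligodendrocyte genes tended to change downward. For these lists, summed levels overlapped between Ctr and SD. The 12 endothelial genes ran from 432 to 633 CPM in Ctr pools and from 425 to 586 after SD, the 9 mural genes from 203 to 306 and from 184 to 258, and the 12 microglial genes from 399 to 625 and from 393 to 604. The 12 oligodendrocyte genes ran from 2722 to 4615 and from 2600 to 4656 CPM. No marker of these lists was without reads in any pool, and the part of these cells in the changes of the members was not tested. The oligodendrocyte genes were far more tightly tied to each other (median pairwise r = 0.76 in Ctr levels) than the 32 astrocyte genes (0.14).

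**Figure D4:**
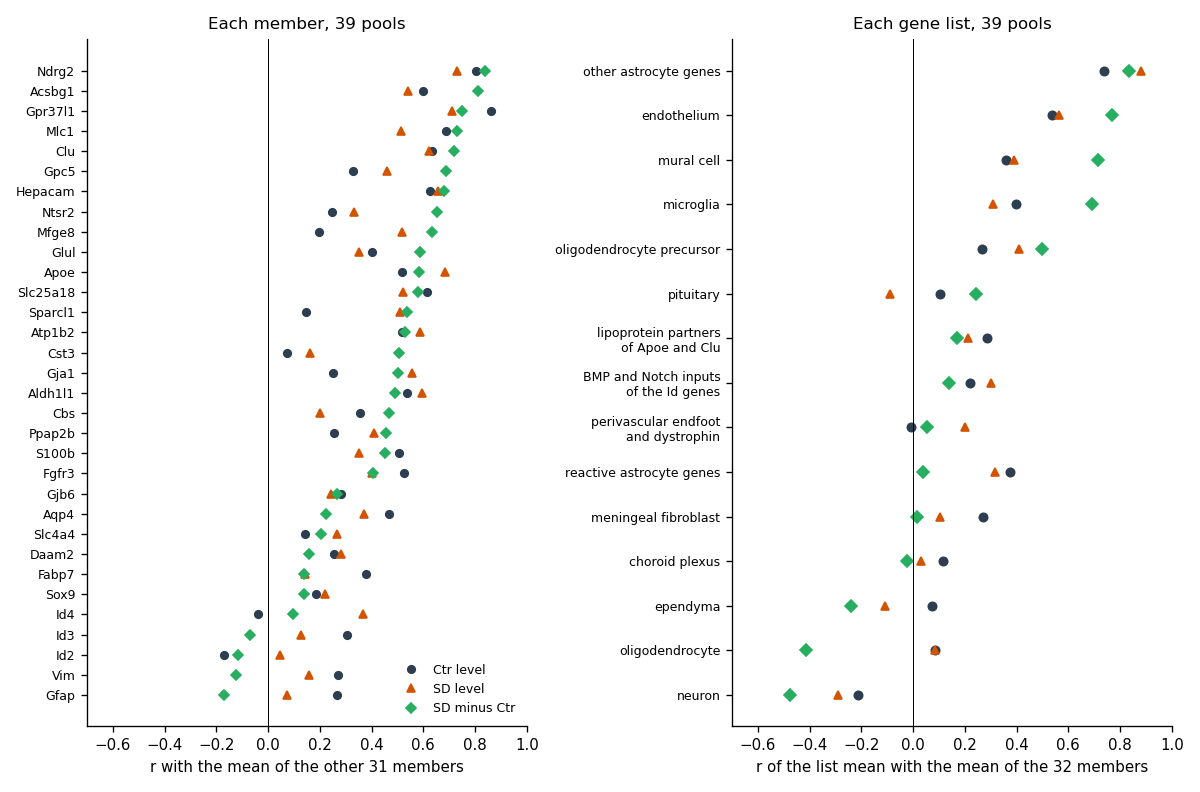
Left, Pearson's r over 39 pools of each astrocyte gene with the mean of the other 31, for Ctr levels (circles), SD levels (triangles) and SD minus Ctr (diamonds). Right, r of the mean of each gene list with the mean of the 32 members. Ndrg2 and Gpr37l1 are near the top and Gfap, Vim and Id2 at the bottom of the left panel, and endothelial, mural and microglial lists lie closer to the members in the changes than in the levels.

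A few pools lay at the ends for many members. The mean Ctr deviation over the 32 ran from -0.19 in BXD81, which was the lowest Ctr pool for 10 of them, to 0.16 in BXD56. In BXD55 it was 0.13 in the Ctr and 0.16 in the SD pool, and BXD55 was the highest SD pool for 7 members. The mean change after SD ran from -0.088 in BXD85, where 9 of the 32 were higher after SD, through a median of 0.054 to 0.19 in B61. BXD85 had the lowest change of the 39 for 13 members and BXD90 for 10. BXD85 was a pool of fewer mice, and its Ctr pool also had the highest endothelial (633 CPM) and mural (306 CPM) sums. In BXD90 the deviations of the 32 members in the Ctr pool had r = -0.731 with the log2 exonic length across members, and Cst3, Mfge8 and Apoe were high there while Slc4a4 and Daam2 were low. Within-line changes had a median SD of 0.13 over the members and 0.14 over all genes, and the largest was that of Gfap (0.37), or of Fabp7 (0.30) without BXD56 and BXD103.

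To see whether the cortical changes were shared by another tissue, the change of each member was compared with that in liver, which has no astrocytes. The liver pools came from the same lines or samplings. 23 of the 32 were listed in liver. Gjb6, Mlc1, Hepacam, Acsbg1, Slc25a18, S100b, Ntsr2, Gpr37l1 and Gpc5 were not. Liver libraries were shallower, with medians of 6752508 reads assigned to genes in Ctr and 6563242 in SD pools, against 22170272 and 22713295 in cortex. The part of this depth in the liver calls was not tested. In liver itself 7 of the 23 passed (30.4%, against 44.2% of all genes), and the change differed between the tissues for 9 of the 23 (39.1%, against 57.7% of 12695 genes). Without the pairing of tissues and conditions by line 7 passed, and Aqp4 (adjusted p = 0.302) and Id3 (0.0725) did not. Glul changed by -0.056 ± 0.033 in liver, where its Ctr median was 8.39 log2 CPM. Liver minus cortex was -0.39 ± 0.026 (adjusted p = 9.31e-16), and the liver change was below the cortex change in 39 of 39 pools. Cbs changed by -0.023 ± 0.029 in liver, which was below the cortex change in 38 of 39 pools (difference -0.35 ± 0.035, adjusted p = 3.54e-11). Gja1, which passed in cortex only with the block, rose in liver by 0.33 ± 0.059 (adjusted p = 1.63e-06), and the difference was 0.29 ± 0.059 (adjusted p = 4.78e-05). Sox9 changed in liver by -0.41 ± 0.093 (adjusted p = 1.46e-04) and Id3 by -0.34 ± 0.056 (adjusted p = 2.31e-07), both lower after SD as in cortex. Id2 (-0.098 ± 0.041, adjusted p = 0.0450) was lower in liver too, as was Slc4a4 (-0.12 ± 0.047, adjusted p = 0.0377), which passed in cortex only with the block. Daam2 and Vim rose in liver as well, by 0.27 ± 0.082 and 0.24 ± 0.049 (adjusted p = 0.00452 and 1.83e-05). For Sox9, Daam2 and Vim the difference between the tissues was not called (adjusted p = 0.162, 0.395 and 0.124), nor for Id2 and Slc4a4 (0.116 and 0.165). Liver values carry a limit for abundant genes. No liver gene had more than 1.78 median reads per exonic base, the value of albumin, whereas cortex genes reached 44.7, and Apoe, Clu, Glul and Cbs had 0.724, 0.617, 0.690 and 0.832 in liver. Whether this limit touches the small liver changes of Glul and Cbs, and with them their difference from cortex, was not tested.

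**Figure D5:**
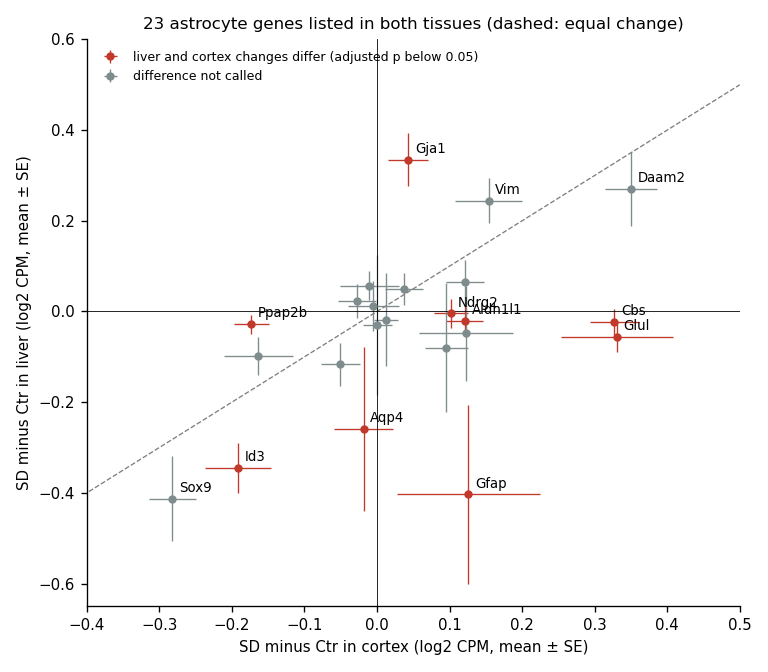
SD minus Ctr in cortex (x axis) against liver (y axis) for the 23 astrocyte genes listed in both tissues, in log2 CPM, as mean ± SE of the tests over 39 and 39 pools. Glul and Cbs rise in cortex and lie near 0 in liver, Gja1 lies near 0 in cortex and rises in liver, and Sox9, Daam2 and Vim lie on the same side in both.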

How the data were processed

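Per the labels and the study's methods, stranded polyA RNA libraries of cortex and liver were sequenced single-end, aligned with STAR to mm9 (the C57BL/6J reference) and counted per RefSeq gene by htseq-count. The authors dropped genes with few reads, normalized with edgeR and deposited log2 CPM values, 1 table per tissue and condition. Whole reads were recovered from these values within a tolerance of 0.02 reads and gave the depth. GEO's series holds 172 pools, and the tests used 39 pools per condition, leaving out the 4 BXD/TyJ lines. Errors are the spread between pools, and cortex depth was similar in both conditions (medians of 22170272 and 22713295 reads). Liver depth was lower (medians of 6752508 and 6563242 reads).

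Differences were tested on log2 CPM across all listed genes with limma 3.58.1 (R 4.3.3, moderated test with a trend, Benjamini-Hochberg adjustment over all genes, threshold 0.05), two-sided. The SD model had Ctr and SD as groups, the strain test had strain and condition, the parental test used 8 libraries with condition, and the liver-cortex test used the within-line changes of both tissues. Same-numbered Ctr and SD pools come from the same inbred line, and their deviations from the group means correlated in 39 of 39 lines (r = 0.30 to 0.71, median 0.61, against a median of -0.020 between lines). The numbers therefore pair the pools, and the blocked fit is given where it changes a call. Correlations (Python 3.11.15, scipy 1.17.1) are descriptions. Code was tested on simulated data.

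The 32 members, the other lists and the tests were chosen with earlier results of these data known. All members are named. Of other lists at most the 3 largest called rises and falls and markers near the floor are named, except where chosen afterwards as stated. Alternatives were voom on recovered reads, the replicate block, other scalings, filters and pool sets, and leaving out each line. Lists were also run without BXD56, BXD90 and BXD103, chosen after seeing the data. Sequences are from RefSeq (GRCm38.p6) and exonic lengths from GENCODE M1, found for 93.3% of cortex genes.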

Additional observations from a re-analysis of the deposited data

Results flagged for a closer look

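For 9 of the 23 members listed in both tissues the change after SD differed between liver and cortex by limma's test of the difference itself, which is what marked them for a closer look. Liver minus cortex was -0.53 log2 units for Gfap, which had a median of only 8 reads in liver, -0.24 for Aqp4, -0.14 for Aldh1l1, -0.39 for Glul, -0.35 for Cbs, -0.11 for Ndrg2 and -0.15 for Id3. It was 0.29 for Gja1 and 0.15 for Ppap2b. Without the pairing by line, Aqp4 (adjusted p = 0.302) and Id3 (adjusted p = 0.0725) did not pass in limma's test. Glul and Cbs are among the abundant liver genes whose liver values may carry the limit described with the liver comparison, which was not tested.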

How the results depend on the processing

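With the line as a block, which pairs the Ctr and SD pool of a line, 17 members were raised and 8 lowered after SD in place of 10 and 5, and no call without the block was lost. Voom on the recovered reads with the block gave 16 and 8, the block without BXD56 and BXD103 16 and 8, and without BXD56, BXD90 and BXD103 16 and 7. Quantile normalization lowered 9, and centring libraries on the members' median raised 4 and lowered 16, since that centring moves the median of all genes to -0.10. Between the parents 6 members differed without a mean-variance trend. Leaving out 1 line at a time gave 10 to 11 raised, 5 to 6 lowered and 9 to 11 differing between liver and cortex, and leaving out a parental sampling gave 7 to 15. Liver and cortex differed for 7 members without the replicate block, and strains for 30 without a trend, 31 without BXD79, BXD85 and BXD101 and 31 with libraries centred on the members' median. The causes were not tested.

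Signs turned for values near 0. With libraries centred on the members' median, the SD change was -0.00059 for Acsbg1, -0.081 for Atp1b2, -0.056 for Clu and -0.051 for Gja1. It was -0.046 for Mlc1, -0.033 for Ntsr2, -0.042 for S100b and -0.093 for Sparcl1. Of these, Acsbg1 alone was called as raised without the block, and Clu, Gja1, Mlc1, Ntsr2 and S100b were called as raised only with it. Quantile normalization gave -0.014 for Atp1b2 and -0.0021 for Gja1. Sparcl1 was -0.0038 with libraries centred on their own medians, -0.0018 with all 43 pools, -0.0027 without BXD56 and BXD103 and -0.0037 without BXD56, BXD90 and BXD103, with or without the block. Cst3 was 0.0082 without these 3, and Mfge8 was 0.0031 without BXD79, BXD85 and BXD101. Leaving out single lines moved Cst3 between -0.016 and 0.0014, Mfge8 between -0.019 and 0.0061 and Sparcl1 between -0.0030 and 0.0034. Liver minus cortex was -0.0089 for Clu without the 3 lines, and over single lines left out it ran from -0.064 to 0.013 for Atp1b2 and from -0.0026 to 0.030 for Mfge8. Depth limited little in cortex, where every member had reads in every pool.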
